A study of Homo sapiens with 6 samples.

Results

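The troponin genes encode the calcium switch of striated muscle. A troponin complex holds 1 subunit of each of 3 kinds and sits on the thin filament with actin and tropomyosin: troponin C binds calcium, troponin I holds back the contact of myosin with actin, and troponin T ties the complex to tropomyosin. Human cells carry separate genes for slow skeletal, fast skeletal and cardiac forms. The 8 genes are TNNT1 (slow skeletal troponin T), TNNT2 (cardiac troponin T), TNNT3 (fast skeletal troponin T), TNNI1 (slow skeletal troponin I), TNNI2 (fast skeletal troponin I), TNNI3 (cardiac troponin I), TNNC1 (troponin C of slow skeletal and cardiac muscle) and TNNC2 (fast skeletal troponin C).

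These 8 genes were taken by name from gene tables of 57820 genes, and each name matched 1 row. The family was chosen by the low TNNT2 counts of ARID1A-KO against WT samples, so the difference in TNNT2 between genotypes is described here without a test. RNA was sequenced from 3 WT and 3 ARID1A-KO samples of AID-DivA cells without treatment, with replicates numbered 3 to 5 in both genotypes. AID-DivA cells are an osteosarcoma line derived from U2OS that carries the restriction enzyme AsiSI, which cuts DNA when induced, fused to an auxin-inducible degron, and both genotypes share this background. ARID1A, a subunit of the BAF chromatin remodelling complex, was knocked out with Cas9 and 2 guides, and cells were cloned. Which clone was sequenced is not given in the sources used here, so a single clone may have given all 3 ARID1A-KO samples, and a difference between genotypes cannot be told apart from a difference between clones. The labels do not say that the samples of a genotype came from separate cultures. The study describes its RNA-seq experiments as independent biological replicates, without saying which clone or culture each sample came from, and p-values measure the spread between these samples.

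Total counts per sample ranged from 54512105 to 84088708, and ARID1A itself measured 173.4 ± 6.67 CPM (CPM, counts scaled by library size with the TMM factors of edgeR, SD, n = 3) in WT and 25.93 ± 1.38 CPM (n = 3) in ARID1A-KO cells. The 8 osteoblast markers summed to between 1180 and 1270 CPM in WT and between 713 and 789 CPM in ARID1A-KO samples. Of these, 5 could be tested, of which 3 fell and 0 rose, where 36.2% of all genes tested were called. Most of the sum came from SPARC and COL1A1, at means of 757.2 and 446.7 CPM in WT and 409.7 and 322.4 CPM in ARID1A-KO cells. RUNX2, at 14.96 and 14.58 CPM, was not called (adjusted p = 0.899 with edgeR). IBSP had 3 counts or fewer in every sample. Of the muscle markers, MYOG, CKM, MYH7 and NPPA had 3 counts or fewer in every sample, whereas NKX2-5, MYL2 and MYH2 were measured at 14.28 ± 1.74, 5.47 ± 0.721 and 4.395 ± 1.23 CPM in WT cells (SD, n = 3 each). The 6 skeletal muscle markers together summed to between 4.25 and 6.79 CPM in WT and between 1.67 and 2.53 CPM in ARID1A-KO samples. Of the 4 tested, 2 fell (MYH2 and ACTA1) and 1, MYOD1, rose (0.0607 to 0.249 CPM). The ACTA1 call was lost in 4 of the 6 fits that left out 1 sample. MYOD1 passed the filter on low counts through its ARID1A-KO samples, where it is high, so its call is a description. Most of the change in the sum came from MYH2, at 1.03 CPM in ARID1A-KO cells. The 6 cardiomyocyte markers summed to between 18.9 and 22.2 CPM in WT and between 17.6 and 20.6 CPM in ARID1A-KO samples, with 1 lower and 0 higher of 2 tested. In bulk RNA, fewer cells that make a transcript and less of it per cell cannot be told apart.

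The sequences before the starts of TNNT1, TNNT2 and TNNI3 are shown because these genes stand at very different levels in the same cells and because TNNT2 differs most between genotypes. They come from RefSeq promoters (build GRCh38.p14), in which 3 of the 8 genes were found, and are written 5′ to 3′ along the gene, all on the minus strand. Bases that lie inside the gene as the count tables place it, or in an exon of any of its transcripts in the GENCODE annotation v44lift37, were left out. Capitals mark matches to the words named below, other than E boxes.
TNNT1, chr19:55149355-55149456, ending 149 bases before the start: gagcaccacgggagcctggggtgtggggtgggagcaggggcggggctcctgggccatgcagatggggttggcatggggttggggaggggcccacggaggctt
TNNT2, chr1:201377765-201377930, ending 85 bases before the start: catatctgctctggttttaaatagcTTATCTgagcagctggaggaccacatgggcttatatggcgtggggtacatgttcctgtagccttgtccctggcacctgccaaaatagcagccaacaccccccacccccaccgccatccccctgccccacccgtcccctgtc
TNNI3, chr19:55157774-55157982, ending 42 bases before the start: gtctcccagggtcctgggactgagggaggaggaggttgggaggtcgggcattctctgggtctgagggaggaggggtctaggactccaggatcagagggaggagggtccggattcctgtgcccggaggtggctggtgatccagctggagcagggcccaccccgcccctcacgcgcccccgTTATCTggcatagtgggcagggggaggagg

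Words were searched on both strands over the 250 bases before each start: the M-CAT core CATTCC (bound by TEAD factors), the GATA word AGATAA, the MEF2 core TATTTTTA, the CArG box (bound by SRF), the E box CANNTG (bound by factors such as MYOD1), the TATA word TATAAA and the AP-1 words TGAGTCA and TGACTCA. The TNNT2 window held an M-CAT core from 81 to 76 bases before the start, in the stretch not printed, and a GATA word on the opposite strand from 225 to 220 bases before it. Of all 35116 promoters of this length, 11.9% held an M-CAT core and 9.17% a GATA word. The TNNI3 window held 2 GATA words, of which the first, 71 to 66 bases before the start, is printed in capitals above. In the TNNT1 window, a TATA word lay 29 to 24 bases before the start, in the stretch not printed, and 10.7% of promoters held this word. E boxes numbered 4 in TNNT2, 1 in TNNT1 and 1 in TNNI3, and 61.8% of promoters held at least 1. No MEF2 core, CArG box or AP-1 word was in these windows, where 2.09%, 1.16% and 4.2% of all promoters have them. A match is a run of letters and was not tested as a binding site.

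Levels of different troponin genes were set side by side in TPM, a transcript share that divides by gene length and adds up to 1000000 per sample. In WT cells, mean TPM was 155.2 ± 17.2 for TNNT1, 4.81 ± 3.71 for TNNT2, 1.35 ± 0.681 for TNNC1 and 0.497 ± 0.230 for TNNI3 (SD, n = 3 each). TNNC2, TNNI2, TNNT3 and TNNI1 followed at 0.112, 0.0592, 0.0368 and 0.00226 TPM, where single reads set the value. The order was thus led by a slow skeletal troponin T, and 3 of the 8 genes had a mean of 1 TPM or more. TNNT1 stood above every other member in every sample. TNNT2 and TNNC1, next to each other in this order, overlapped between WT samples (0.923 to 8.32 and 0.907 to 2.13 TPM), and TNNI3 lay below TNNC1 without overlap, between 0.248 and 0.703 TPM. Without WT replicate 3, the number at 1 TPM or more was 2. In ARID1A-KO cells, TNNT1 at 165.4 ± 15.2 TPM was followed by TNNI3 at 0.775 ± 0.250 and TNNC1 at 0.353 ± 0.151 TPM, and TNNT2, at 0.0639 ± 0.0729 TPM, came after TNNC2 at 0.0938 and TNNI2 at 0.0856 TPM (SD, n = 3 each). These last 3 levels overlapped between samples, and without ARID1A-KO replicate 5 they were 0.0218 TPM for TNNT2, 0.0529 for TNNC2 and 0.0215 for TNNI2.

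**Figure D1:**
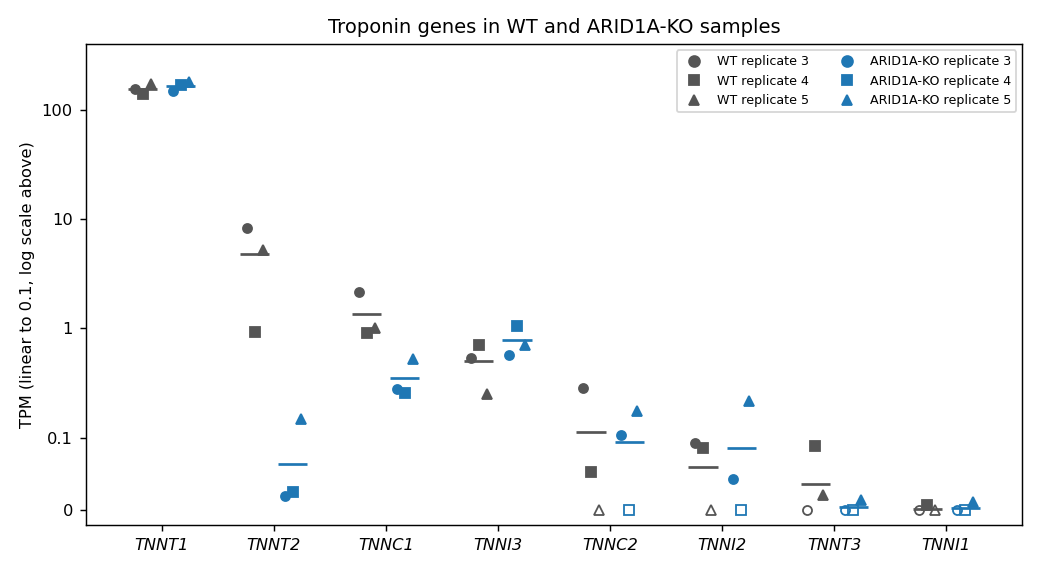
TPM of the 8 troponin genes on an axis that is linear to 0.1 and logarithmic above. Grey points are the 3 WT and blue points the 3 ARID1A-KO samples, shapes give the replicate, open points are values of 0 and bars are means. TNNT1 lies between 138 and 179 TPM in all 6 samples, and TNNT2 drops from 0.923 TPM or more in WT to 0.148 TPM or less in ARID1A-KO samples.

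The TPM divides by all exonic bases that the tables give a gene, which for TNNT2 is 7281 bases, whereas its MANE transcript (TNNT2-224, 17 exons) has 1165. Divided by the MANE transcript instead, the mean TMM-scaled CPM per kilobase in WT cells was 92.35 for TNNT1 (transcript of 1111 bases), 9.11 for TNNT2, 0.696 for TNNC1 and 0.364 for TNNI3. The order of these 4 genes in WT cells was the same with either length. In ARID1A-KO cells the order at the low end turned, with TNNT2 at 0.119 CPM per kilobase of MANE transcript above TNNI2 at 0.0368 and TNNC2 at 0.0366.

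TNNT2, the cardiac troponin T that is also made in embryonic skeletal muscle, had the lowest counts in ARID1A-KO cells relative to WT of the family. The gene (ENSG00000118194.14) lies on the minus strand of chromosome 1 from 201328136 to 201346890 (GRCh37). Counts were 1215, 146 and 673 in WT replicates 3, 4 and 5, and 3, 3 and 28 in ARID1A-KO replicates 3, 4 and 5. In CPM, these were 18.21, 2.06 and 11.56 in WT and 0.0441, 0.0546 and 0.318 in ARID1A-KO samples. The genotypes did not overlap, and WT replicate 4, the lowest WT sample, was 6.47-fold above ARID1A-KO replicate 5, the highest ARID1A-KO sample. Means were 10.61 ± 8.12 CPM in WT and 0.139 ± 0.155 CPM in ARID1A-KO cells (SD, n = 3 each), and the fitted log2 fold change of ARID1A-KO against WT was -6.07 (SE 0.90). This was the 14th lowest of the 19599 genes with enough counts to be fitted.

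The size of the TNNT2 difference depended on the sample. Within WT, replicate 3 was 8.85-fold and replicate 5 was 5.62-fold above replicate 4. The SD of log2 CPM among the WT samples was 1.65, and 6 of the 19599 genes had a larger one. Among ARID1A-KO samples it was 1.24, with 37 genes above it. Without ARID1A-KO replicate 5, which held 28 of the 34 ARID1A-KO counts, the log2 fold change was -7.71, and without WT replicate 3 it was -5.44. ARID1A-KO replicates 3 and 4 stood at 3 counts, where counting error alone is large, and 3 counts correspond to between 0.0341 and 0.0546 CPM in these libraries. Across genes, WT replicate 4 was 4-fold or more below both other WT samples in 53 genes, against 37 genes for replicate 3 and 59 for replicate 5. By the chi-square of counts per gene, WT replicates 3 and 5 differed least (16.39), and replicate 4 differed more from both (27.36 and 23.24). ARID1A-KO replicates 3 and 4 differed by 6.94 on this measure, and replicate 5 from them by 29.81 and 21.19. ARID1A-KO replicate 5 was 4-fold or more above both other ARID1A-KO samples in 55 genes, against 9 and 10 genes for replicates 3 and 4. The part of these library differences in the TNNT2 values was not tested.

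TNNT1, the slow skeletal troponin T, was by far the most abundant member and showed no difference past the threshold. The gene (ENSG00000105048.12) lies on the minus strand of chromosome 19 from 55644162 to 55660722. Counts were 6739, 6518 and 6693 in WT and 6989, 6127 and 10109 in ARID1A-KO samples. The last of these came from the deepest library, and in CPM the samples read 101.0, 91.83 and 115.0 in WT and 102.7, 111.5 and 114.9 in ARID1A-KO cells. The genotypes overlapped, and the difference was small (log2 fold change 0.10, SE 0.09, adjusted p = 0.424, from the quasi-likelihood test of edgeR, adjusted by Benjamini-Hochberg over all genes tested). The adjusted p-value ranged from 0.116 to 0.872 over the alternatives. For TNNT3, the fast skeletal troponin T (chromosome 11, 1940792 to 1959936, plus strand), counts were 0, 5 and 1 in WT and 0, 0 and 1 in ARID1A-KO samples. These were too few to be tested.

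Among troponin I genes, which encode the inhibitory subunit, TNNI3 alone had enough counts. This cardiac troponin I (ENSG00000129991.8) lies on the minus strand of chromosome 19 from 55663137 to 55669141, next to TNNT1. Its counts were 22, 31 and 9 in WT and 25, 36 and 37 in ARID1A-KO samples, or 0.330, 0.437 and 0.155 and 0.367, 0.655 and 0.420 CPM. The genotypes overlapped, and the log2 fold change of 0.60 (SE 0.37) did not pass the threshold, with an adjusted p of 0.246 from edgeR and between 0.108 and 0.584 over the alternatives. Slow skeletal TNNI1, on chromosome 1 from 201373625 to 201398994, had 0, 1 and 0 counts in WT and 0, 0 and 2 in ARID1A-KO samples. Fast skeletal TNNI2, on chromosome 11 from 1860219 to 1862910, had 2, 2 and 0 counts in WT and 1, 0 and 6 in ARID1A-KO samples. At these counts, a difference between genotypes was not detectable in either gene.

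TNNC1, the calcium-binding subunit of cardiac and slow skeletal muscle, fell in ARID1A-KO cells from an already low level. The gene (ENSG00000114854.3) lies on the minus strand of chromosome 3 from 52485118 to 52488086. Counts were 50, 23 and 21 in WT and 7, 5 and 16 in ARID1A-KO samples. In CPM, WT samples read 0.749, 0.324 and 0.361 and ARID1A-KO samples 0.103, 0.0910 and 0.182, with no overlap between genotypes. Means were 0.478 ± 0.236 and 0.1252 ± 0.0494 CPM (SD, n = 3 each; log2 fold change -1.86, SE 0.43, adjusted p = 0.00881 with edgeR), and the call was kept in all 6 fits that left out 1 sample. The highest adjusted p-value among the alternatives was 0.0347. TNNC1 passed the filter on low counts through its WT samples, where it is high, and a filter of 10 counts in every sample removed it. Its call is therefore given as a description. As with TNNT2, WT replicate 3 was the highest WT sample and ARID1A-KO replicate 5 the highest ARID1A-KO sample. TNNC2, the fast skeletal troponin C on the minus strand of chromosome 20 from 44451853 to 44462384, had 5, 1 and 0 counts in WT and 2, 0 and 4 in ARID1A-KO samples and was not tested.

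Of the 8 members, 4 passed the filter on low counts. Apart from TNNT2, whose values chose the family, these were 3 genes, of which 1 fell (TNNC1) and 0 rose at an adjusted p under 0.05, where 36.2% of all 19599 genes tested were called, 17.8% of them as higher and 18.4% as lower. The CPM of the genotypes did not overlap for TNNT2 and TNNC1, as for 49.5% of all genes tested. Since the family was chosen with this comparison known, nothing is read from these counts. Of the 2 troponin T genes tested, the cardiac form was lower in every ARID1A-KO sample and the slow skeletal form overlapped between genotypes.

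Reads of TNNT2 may be shared with LAD1, which encodes the basement membrane protein ladinin. LAD1 lies on the same strand and reaches from inside TNNT2 towards TNNI1, and the tables give both genes 4519 bp in common, so strand cannot keep their reads apart there. In the GENCODE annotation for GRCh37 (version v44lift37), 0 bp of their exons overlap. LAD1 measured 2.68, 1.06 and 2.54 CPM in WT and 0.353, 0.309 and 0.716 CPM in ARID1A-KO samples. It fell (log2 fold change -2.13, SE 0.41, adjusted p = 0.00332 with edgeR), and like TNNT2 it was lowest among WT samples in replicate 4 and highest among ARID1A-KO samples in replicate 5. Whether part of the LAD1 counts came from TNNT2 transcripts was not tested. The other genes tested within 100 kb of TNNT2 were not called: their log2 fold changes were -0.28 for RP11-134G8.8 (SE 0.17, adjusted p = 0.218) and 0.13 for PHLDA3, a p53 target (SE 0.13, adjusted p = 0.475).

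**Figure D2:**
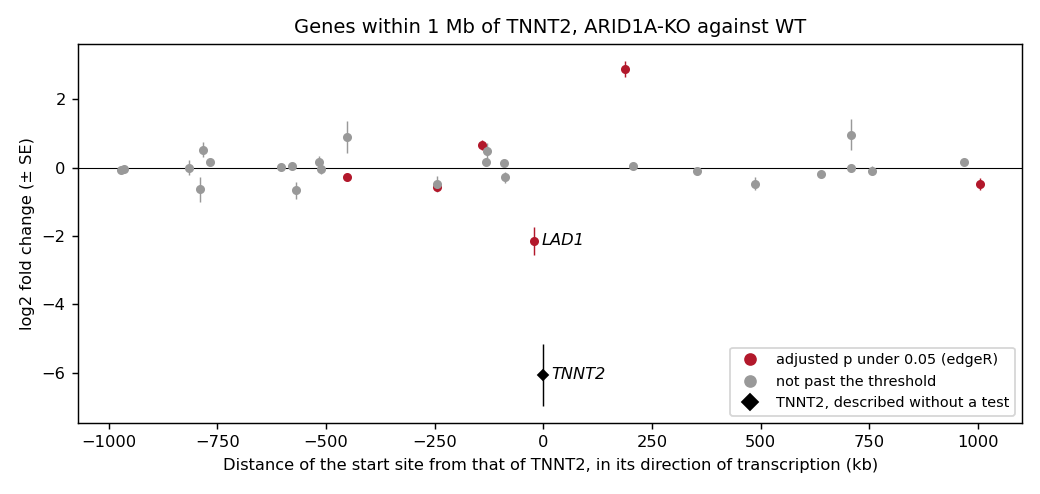
Log2 fold change of ARID1A-KO against WT, with its SE, for genes tested within 1 Mb of TNNT2, by the distance of their start from that of TNNT2 in its direction of transcription. Red points passed an adjusted p under 0.05, and the black diamond is TNNT2, described without a test. TNNT2 (-6.07) and LAD1 (-2.13) lie below all other genes shown, and IGFN1 (2.89) above them.

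Over wider distances, the median change around TNNT2 was near 0. Within 1 Mb, 31 other genes were tested, of which 2 were higher and 4 lower, with a median log2 fold change of 0.004. Within 5 Mb, 7 of 102 were higher and 24 lower, with a median of -0.033. Over all genes tested, 17.8% were higher and 18.4% lower (36.2% called), with a median of 0.007. IGFN1, which encodes an immunoglobulin-like protein of skeletal muscle, was among the higher ones at a log2 fold change of 2.89 (SE 0.23). It was named after its value was seen.

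Around TNNC1, 8 genes were tested within 100 kb, of which 2 rose and 1 fell, where 36.2% of all genes tested were called. PHF7, a testis-expressed ubiquitin ligase that binds histones, rose by 0.73 on the log2 scale (SE 0.12, adjusted p = 0.00119), and the semaphorin SEMA3G rose by 0.69 (SE 0.19, adjusted p = 0.0179). The dynein heavy chain DNAH1 fell (log2 fold change -0.38, SE 0.12, adjusted p = 0.0296), a call lost in 4 of the 6 fits that left out 1 sample. The median within 1 Mb of TNNC1 was 0.161.

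Of 11 genes tested within 100 kb of TNNT1, 5 rose and 0 fell, and of 11 near TNNC2, 6 rose and 0 fell. Over all genes tested, 17.8% were higher and 18.4% lower. Near TNNC2, the calls of UBE2C, SPATA25 and NEURL2 were lost in 5, 4 and 1 of the 6 fits that left out 1 sample. That of PPP1R12C near TNNT1 was lost in 2. Near TNNT1 and TNNI3 on chromosome 19, EPS8L1, a relative of the actin regulator EPS8, had a log2 fold change of 3.54 (SE 0.42), the phosphatase PTPRH 2.61 (SE 0.13) and the synaptotagmin SYT5 2.16 (SE 0.17), all called and named here for their size. With unstranded counts the value for EPS8L1, which had 7 counts over all WT samples, was 2.15. EPS8L1 passed the filter on low counts through its ARID1A-KO samples, where it is high, so its call is a description. EPS8L1 rose from 0.0361 ± 0.0230 to 0.432 ± 0.0586 CPM and PTPRH from 2.90 ± 0.512 to 17.77 ± 0.699 CPM (SD, n = 3 each). TNNT1 lies among these genes with a log2 fold change of 0.10, and the median of 68 genes tested within 1 Mb of it was 0.232. Near TNNT3 and TNNI2 on chromosome 11, the imprinted noncoding RNA H19 rose from 3.25 ± 0.960 to 17.69 ± 2.75 CPM and the lysosomal protease CTSD from 59.91 ± 7.21 to 138.1 ± 16.03 CPM (SD, n = 3 each), while both troponin genes stayed at 6 counts or fewer in every sample. Of all 42 genes tested within 100 kb of a member, 18 were higher and 2 lower, with a median log2 fold change of 0.223 and 47.6% called, against 36.2% of all genes.

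Some genes elsewhere in the genome varied across the 6 samples much as TNNT2 did. Likeness was taken as the root mean square difference in log2 CPM over the 6 samples after each gene was centred on its mean, among 13216 genes with a mean log2 CPM over 1. CD180, a Toll-like receptor relative known from B cells, was nearest at 0.431, with 19.59, 1.97 and 10.53 CPM in WT and 0.118, 0.109 and 0.523 CPM in ARID1A-KO samples. Next came ZBED2, a zinc finger transcription factor, at 0.538, with 5.77, 1.82 and 7.05 CPM in WT and 0.0294, 0.0546 and 0.216 CPM in ARID1A-KO samples. MFAP5, a protein of elastic microfibrils, followed at 0.747, with 24.87, 10.24 and 25.83 CPM in WT and 0.250, 0.255 and 0.398 CPM in ARID1A-KO samples. In all 3 genes, as in TNNT2, WT replicate 4 was the lowest WT sample and ARID1A-KO replicate 5 the highest ARID1A-KO sample. None of the 3 had the full order of samples seen in TNNT2. The other two were the noncoding genes AC011738.4, at 0.864, and CTD-2319I12.1, at 1.03. These genes were picked for their likeness over the same samples, so it is a description. PTPRC, a surface phosphatase of leukocytes, was also lower, with 2.47, 1.49 and 1.87 CPM in WT and 0.162, 0.491 and 0.682 CPM in ARID1A-KO samples (log2 fold change -2.10, SE 0.39, adjusted p = 0.00292 with edgeR). It was named after its values were seen, and its part in the TNNT2 values was not tested.

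**Figure D3:**
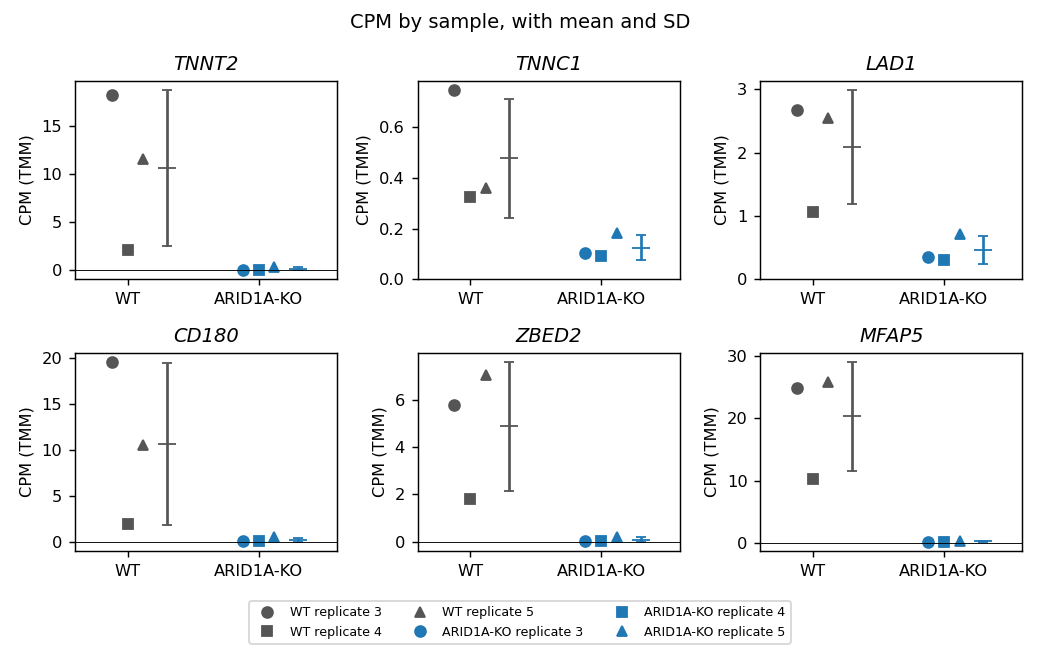
CPM of TNNT2, TNNC1, LAD1 and the 3 genes most like TNNT2 in each sample, on linear axes that differ between panels, with the mean and SD (n = 3) beside the points of each genotype. WT replicate 4 (square) is the lowest WT sample in all 6 panels, from 0.324 CPM for TNNC1 to 10.24 CPM for MFAP5. For TNNC1, WT replicates 4 and 5 stand at 0.324 and 0.361 CPM, from 23 and 21 counts, so counting error can reverse their order. The genotypes do not overlap in any panel.

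The thin filament that troponin sits on was represented by 20 other genes, of which 15 were tested, and 3 rose and 6 fell. The median log2 fold change was -0.43 and 60.0% were called, against 36.2% of all genes tested. Tropomyosins hold troponin T on the filament. TPM4 fell from 210.4 ± 19.0 to 110.2 ± 1.81 CPM and TPM1 from 186.7 ± 13.9 to 120.5 ± 1.52 CPM (SD, n = 3 each). TPM2 and TPM3, at 244.4 and 501.4 CPM in WT cells, were not called, with log2 fold changes of 0.16 and -0.02. The pointed-end capping protein TMOD3 fell from 109.3 ± 10.7 to 56.5 ± 0.717 CPM. These tropomyosin and tropomodulin genes are also made in cells other than muscle. The largest changes were in the Xin-repeat proteins, which bind actin. XIRP1 fell (-2.10, SE 0.48, from -2.995 to -1.74 over the alternatives) at under 1 CPM. XIRP1 passed the filter on low counts through its WT samples, where it is high, so its fall is a description. XIRP2 rose from 4.53 ± 0.390 to 18.85 ± 0.955 CPM. Cardiac actin ACTC1 rose from 1.92 ± 0.154 to 4.16 ± 0.483 CPM and smooth muscle actin ACTA2 from 5.87 ± 1.57 to 9.73 ± 0.865 CPM (SD, n = 3 each). Skeletal actin ACTA1 was lower, at a log2 fold change of -0.72 (SE 0.21), but the call was lost in 4 of the 6 fits that left out 1 sample.

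Of 36 genes of the thick filament and Z-disc, 17 were tested, of which 5 rose and 4 fell. Their median log2 fold change was 0.003 and 52.9% were called, against 36.2% of all genes tested. The M-band protein MYOM3 fell from 3.99 ± 1.17 to 0.450 ± 0.118 CPM, the fast myosin heavy chain MYH2 from 4.395 ± 1.23 to 1.03 ± 0.348 CPM and the cardiac and slow regulatory light chain MYL2 from 5.47 ± 0.721 to 2.20 ± 0.0593 CPM (SD, n = 3 each). The fall of CSRP3, a muscle LIM protein, was called (-1.39, SE 0.39) and lost in 4 of the 6 fits that left out 1 sample. ANKRD1, a nuclear and sarcomeric ankyrin repeat protein, rose from 528.5 ± 41.2 to 1074 ± 30.5 CPM, and the Z-disc protein MYOZ2 (0.92, SE 0.18) and the M-band protein MYOM1 (0.63, SE 0.13) also rose.

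Calcium reaches troponin C by release from the sarcoplasmic reticulum, and pumps take it up again. Of 20 genes of muscle calcium handling, among them subunits of surface membrane channels, 13 were tested, of which 3 rose and 5 fell. Their median log2 fold change was -0.027 and 61.5% were called, against 36.2% of all genes tested. The calcium buffer CASQ1 had the largest fall, from 0.974, 0.225 and 0.584 CPM in WT to 0.0881, 0.0364 and 0.0227 CPM in ARID1A-KO samples (-3.58, SE 0.67). This rests on 10 ARID1A-KO counts in all, and the log2 fold change ranged from -4.31 without ARID1A-KO replicate 3 to -2.27 with unstranded counts. CASQ1 passed the filter on low counts through its WT samples, where it is high, so its fall is a description. WT replicate 4 was the lowest WT sample here as well. JPH2, which joins the reticulum to the surface membrane, fell from 3.92 ± 0.444 to 1.55 ± 0.267 CPM, and the pump ATP2A1 fell from 2.93 ± 0.697 to 1.29 ± 0.0926 CPM. The release channel RYR1 rose from 13.59 ± 2.83 to 32.1 ± 4.73 CPM, the pump ATP2A3 from 1.84 ± 0.342 to 3.78 ± 0.346 CPM and the channel subunit CACNB1 from 19.24 ± 0.328 to 25.54 ± 1.18 CPM (SD, n = 3 each).

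Of 26 transcription regulators of muscle and heart genes, 20 were tested, of which 7 rose and 2 fell, with a median log2 fold change of 0.15 and 45.0% called. GATA6 rose from 0.308 ± 0.101 to 1.56 ± 0.0894 CPM, GATA5 from 0.265 ± 0.0169 to 1.18 ± 0.361 CPM and the myogenic factor MYOD1 from 0.0607 ± 0.00947 to 0.249 ± 0.0304 CPM (SD, n = 3 each). All 3 remained below 2 CPM in every sample. MYOD1, with 4, 5 and 3 counts in WT samples, passed the filter on low counts through its ARID1A-KO samples, where it is high. Its rise is therefore given as a description. GATA4, at 7.19 ± 0.327 and 8.85 ± 0.862 CPM, and the cardiac factor NKX2-5, at 14.28 ± 1.74 and 17.13 ± 1.596 CPM, did not pass the threshold (adjusted p = 0.0561 and 0.0927 with edgeR). Of the TEAD factors, which bind M-CAT elements, TEAD4 fell from 135.3 ± 8.23 to 103.2 ± 3.96 CPM, and TEAD1, at 309.6 ± 12.5 and 278.1 ± 5.87 CPM, was not called (adjusted p = 0.0682 with edgeR). TEAD2 and TEAD3 were not called either, at log2 fold changes of -0.097 and 0.068 (adjusted p = 0.52 and 0.62 with edgeR). MRTFB, a coactivator of SRF, had a log2 fold change of -0.27 (SE 0.09), a call lost in 4 of the 6 fits that left out 1 sample. These muscle lists were drawn up with earlier results of these data known, and over all genes tested 36.2% were called with a median log2 fold change of 0.007.

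**Figure D4:**
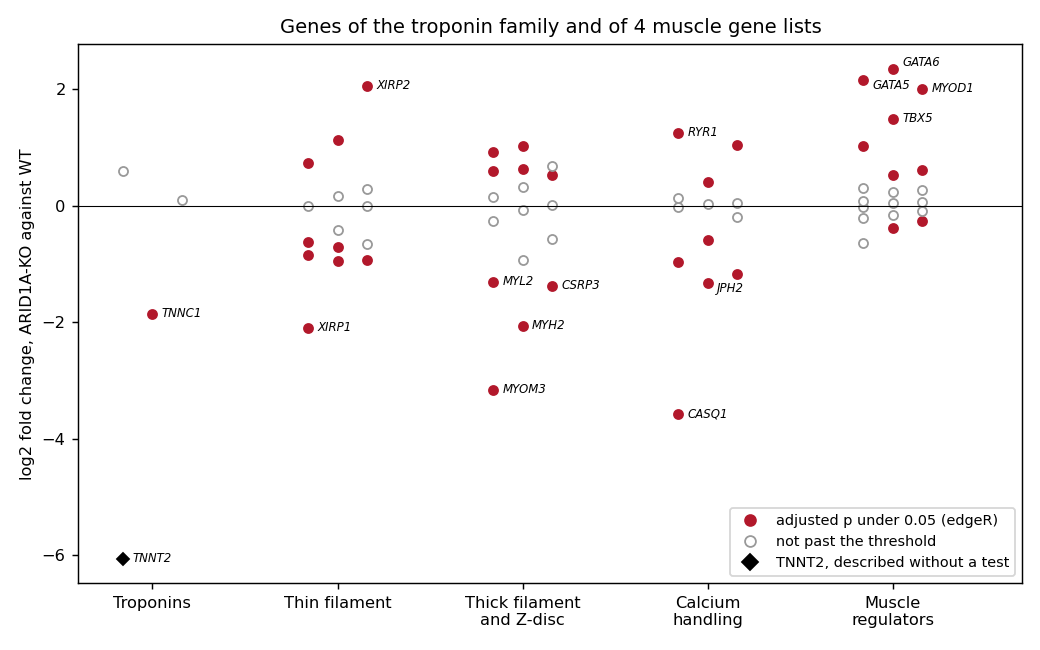
Log2 fold change of ARID1A-KO against WT for each troponin gene and each gene of the 4 muscle lists with enough counts. Filled red points passed an adjusted p under 0.05, open points did not, the black diamond is TNNT2, described without a test, and called genes with a change over 1.2 in size are named. Each of the 4 muscle lists holds called genes on both sides of 0, and TNNT2 lies at -6.07 and TNNC1 at -1.86.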

How the data were processed

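RNA-seq data were analysed from 6 samples of untreated AID-DivA cells, 3 WT and 3 ARID1A-KO, grouped by their labels. Libraries were made with a stranded total RNA kit (the labels name polyA RNA) and sequenced as paired reads. The authors ran the Roddy workflow, with STAR as aligner and GRCh37 (hg19) as genome, and deposited raw featureCounts counts per gene without normalization. The authors also deposited TPM over all genes and a second TPM-like signal column scaled to part of the genes, which is used as an alternative only. Reverse-stranded columns were used. Forward counts were 5.83% to 6.15% of reverse counts. No sample pair agreed within sampling noise (chi-square per gene 6.94 to 29.81).

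Counts passed filterByExpr and TMM and were compared with edgeR 4.0.16 (quasi-likelihood test, R 4.3.3) over 19599 genes, with Benjamini-Hochberg adjustment over all of them and a threshold of 0.05. The script was tested on simulated data. The alternatives were unstranded counts, DESeq2 1.42.0, RLE factors, a filter of 10 or more counts in every sample, no filter, a replicate block, a prior count of 2, an adjusted p under 0.01, other TPM levels and each sample left out. The scaled TPM was added after seeing the data.

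The members, gene lists and tests were chosen with earlier results of these data known. Named genes are the members, ARID1A, up to 3 largest called rises and falls per list, tested genes within 100 kb of a called member, the 5 genes most like TNNT2, and list members that background needed. Neighbours of members that were not called, and IGFN1, were chosen after their values were seen. At these depths counting error is small except for genes with few counts, and floors cover counting error only. The result of 1 marker list is not reported here.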

Additional observations from a re-analysis of the deposited data

How the results depend on the processing

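The number of troponin genes called, which counts TNNT2, whose fall chose the family, was 2 in the other alternatives and 0 with at least 10 counts in every sample, a filter that TNNT1 alone passed. It says nothing about stability. TNNC1 was called in the 12 alternatives that could test it, with log2 fold changes from -2.27 to -1.39. It passed the main filter through its WT samples, where it is high, so this is a description. Among all genes, 4414 were called at an adjusted p under 0.01 in place of 7099. At 0.1 TPM or more, 5 troponin genes were counted in WT cells in place of 3 at 1 TPM or more. In the other alternatives, 95 counts stayed within 1.5 times, 49 log2 fold changes of single members kept their direction and side of the threshold, and no value reversed. Both numbers include values of TNNT2, whose fall chose the family, and those say nothing about stability. Of 64 alternative levels in TPM, 10 moved by over 1.5 times. Among them were TNNT2 in WT (3.05 TPM without replicate 3) and in ARID1A-KO cells (0.0218 TPM without replicate 5), and TNNC2 in WT (0.0263 TPM without replicate 3). That all 64 lay within 1 SD is no check, since leaving out 1 of 3 samples cannot move a mean that far. Other scalings shifted the median of all genes little, from 0.0066 to between 0.0022 and 0.0097, and the share of higher calls lay between 48.1% and 49.6%.

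The replicate numbers were not shown to pair the samples. Correlations of the deviations of same-numbered samples from the genotype means were -0.177, 0.268 and 0.18, and 2 of 6 samples correlated best with their own number. With the replicate block, 3708 genes were higher and 3769 lower (7477 in all). The 2 troponin genes called were TNNT2, whose fall chose the family, and TNNC1, so their number says nothing about stability.

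The depth limits 4 of the 8 members, TNNT3, TNNI1, TNNI2 and TNNC2, at 6 counts or fewer in every sample. TNNT2 in ARID1A-KO cells rests on 34 counts, and TNNC1 on 28.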

Other observations

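The sums of epithelial markers did not overlap between the genotypes, and those of smooth muscle and endothelial markers did. Among all genes tested, 49.5% did not overlap between the genotypes and 36.2% were called. Epithelial markers (EPCAM, CDH1, KRT8 and KRT18) summed to between 721 and 835 CPM in WT and between 492 and 514 CPM in ARID1A-KO samples. Of these 4, all tested, 3 fell and EPCAM rose. The EPCAM call was lost in 4 of the 6 fits that left out 1 sample. Most of the sum came from KRT8 and KRT18, at means of 270.5 and 483.8 CPM in WT cells. Smooth muscle markers (ACTA2, MYH11, CNN1 and TAGLN) lay between 43.8 and 52.6 CPM in WT and between 49.0 and 55.7 CPM in ARID1A-KO samples. Of the 3 tested, 1 rose and 1, TAGLN, fell. The TAGLN call was lost in 5 of the 6 fits that left out 1 sample. Endothelial markers, of which 2 of 3 were matched, lay between 1.72 and 2.39 CPM in WT and between 2.1 and 2.25 CPM in ARID1A-KO samples, with 0 called of 2 tested in edgeR's test. The part of these markers in the troponin values was not tested.

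Within the calcium handling genes, 2 other ryanodine receptors were lower while RYR1 was higher. RYR2, the cardiac form, measured 3.70 ± 0.450 and 2.43 ± 0.369 CPM in WT and ARID1A-KO cells, and RYR3 measured 0.493 ± 0.0501 and 0.239 ± 0.105 CPM (SD, n = 3 each). Both calls were lost in some of the 6 fits that left out 1 sample, 3 for RYR2 and 4 for RYR3.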
